A study of Mus musculus with 11 samples.

Results

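Cells marked by green fluorescent protein (GFP) were taken from mouse spinal cords by sorting 5 days after the first symptoms of experimental autoimmune encephalomyelitis (EAE), and all genes of the count table were compared with GFP cells sorted from healthy cords. EAE is an autoimmune model of multiple sclerosis. The comparison rests on 6 of the 11 libraries of the series, chosen by their labels: 3 from EAE mice at day 5 (D5) and 3 from healthy mice (sorted control). All of these mice, controls included, were C57BL/6 Col1a1GFP, a reporter strain in which GFP marks cells that use Col1a1, the gene of the main chain of collagen I. The reporter follows collagen I and therefore does not by itself separate fibroblasts from other cells that use the gene. Cells of 2 to 3 cords were pooled for a library, and the labels count each pool as a biological replicate. The sources used here do not give age, sex or the agents used to induce EAE. The 3 libraries from day 10 after onset (D10) entered the statistical fit to help estimate the spread between libraries, and their levels are quoted without a test. Control and D5 values below are given in the order of the replicate numbers, 1, 3 and 4 for the controls and 1, 2 and 3 for D5.

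Fibroblasts of the cord lie mostly in the meninges and around blood vessels, where they build collagen, laminin and proteoglycan matrix and, in the healthy adult, seldom divide. After injury or inflammation such cells can divide, lay down scar matrix and answer cytokines such as interferons, interleukin 1 and tumour necrosis factor. During EAE, T cells, plasma cells, monocytes and neutrophils enter the same spaces, so a sort of stromal cells can carry some of their RNA.

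The unit used throughout is CPM, the count of a gene scaled to a common library total, after TMM scaling, a correction for library composition. CPM is not divided by gene length, so it compares samples for 1 gene and does not rank genes by their number of RNA molecules. Genes given by their 2 group means without an SD were chosen after their values were seen, as examples of a list. Library totals were 7943615 to 10300867 counts in the 3 controls and 7123291 to 8485996 in the 3 D5 samples. Ribosomal RNA of mitochondria took 3.59% to 4.05% of the counts in controls and 5.87% to 7.10% at D5, while messenger RNA of mitochondria took 0.497% to 0.661% and 0.567% to 0.635%. Every pair of libraries in a group differed by more than counting noise, so each was kept as a replicate of its own. An entry named mmu-mir-689-2 alone held a mean of 91058 CPM in controls and was not called (log2 0.25 ± 0.15, adjusted p = 0.242).

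Collagen I, fibronectin and periostin RNA was present in the sorted cells and higher at D5. Col1a1 (ENSMUSG00000001506) stood at 5167, 7906 and 8219.7 CPM in the controls and 16373, 12414 and 18666 CPM at D5, and no D5 library overlapped a control. The log2 fold change was 1.16 ± 0.30 (standard error, SE; adjusted p = 0.0147, edgeR's quasi-likelihood test with Benjamini-Hochberg adjustment, as for every adjusted p below), but the call ended without D5 replicate 3 (adjusted p = 0.0595) and control replicate 1 (adjusted p = 0.0644). Fibronectin, the matrix glycoprotein encoded by Fn1 (ENSMUSG00000026193), stood at 982, 719 and 674 CPM in the controls and 3025, 3151 and 3363 CPM at D5 (log2 2.01 ± 0.19, adjusted p = 6.59e-05). Postn (ENSMUSG00000027750), which encodes the matrix protein periostin, was at 36.01, 31.6 and 50.3 CPM in the controls and 192, 194 and 228 CPM at D5 (log2 2.38 ± 0.32, adjusted p = 0.000291). For Mki67 (ENSMUSG00000031004), which marks dividing cells, the levels were 47.03, 17.8 and 28.9 CPM in the controls and 239.8, 242 and 233 CPM at D5 (log2 2.94 ± 0.34, adjusted p = 0.000138). The D5 libraries lay within a narrow range for this gene, and the lowest of them was well above the highest control.

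All 9 fibroblast markers that had been listed were expressed in every library, with a summed level of 22667 to 29696 CPM in controls and 35127 to 49500 CPM at D5. They did not move together, with 5 that rose, 3 that fell and 1 that was not called. Beside the counts of all marker lists, 13.2% of all genes tested rose and 10.7% fell. Fbln1, which encodes the matrix glycoprotein fibulin 1, rose from 253 ± 69.9 to 849 ± 66.2 CPM (SD, n = 3; log2 1.75 ± 0.20, adjusted p = 0.000144). Pdgfra, a receptor for platelet-derived growth factor, fell from 1226 ± 54.1 to 849 ± 59.05 CPM (log2 -0.53 ± 0.13, adjusted p = 0.0105). Dcn, which encodes the small proteoglycan decorin, fell from 6587 ± 574 to 3172 ± 709 CPM (log2 -1.05 ± 0.19, adjusted p = 0.00215). Leaving out D5 replicate 3 or control replicate 1 reduced the risers of this list from 5 to 2 and leaving out control replicate 4 to 3. Fitting the replicate numbers as a block reduced its fallers from 3 to 1, and the Pdgfra call ended (adjusted p = 0.0662).

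Markers of blood cells rose in the sorted libraries from low levels in controls. All 8 leukocyte markers tested rose, and their summed level went from 5.74 to 26.6 CPM in controls to 168 to 324 CPM at D5. Of the T cell list, 8 of 9 rose (1.24 to 4.16 CPM against 79.4 to 158). The exception was Cd8a, which marks cytotoxic T cells, with 0.980, 0 and 1.34 CPM in the controls and 0.477, 1.88 and 1.18 CPM at D5 (adjusted p = 0.763). A filter on low counts kept genes near 0 in controls only through the EAE libraries, so risers were favoured in advance in the T cell list. In the macrophage and microglia list 10 of 16 rose (69.9 to 75.3 CPM against 145 to 233). With limma voom 5 rose, since the calls of C1qa, C1qb, Cd14, Cx3cr1 and Trem2 ended (adjusted p = 0.0518 to 0.0664). In the neutrophil and monocyte list 5 of 8 rose (2.202 to 28.5 CPM against 66.6 to 139), and risers numbered 3 with a replicate block. One gene of each of the last 3 lists was at 0 in all 3 controls, namely Trac for T cells, Trem2 for microglia and Ly6g for neutrophils. The macrophage list had 1 faller without control replicate 3. The B and plasma cell list had 2 of 4 tested genes that rose and 1 that fell (52.3 to 69.9 CPM against 110.1 to 162), most of it from Sdc1, which other cells also use. The faller was Cd79a, a B cell receptor subunit, and the Cd79a call ended without D5 replicate 1 (0.0501), D5 replicate 2 (0.0687), D5 replicate 3 (0.102), control replicate 1 (0.0869) and control replicate 4 (0.0906). With limma voom 1 gene of this list rose and 0 fell. Igj had 0 counts in controls, and Ms4a1, the gene of the B cell antigen CD20, had 0 counts in all 6 libraries.

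Endothelial markers rose in 3 of 10 cases (287 to 335 CPM against 567 to 691), with Emcn, Vwf and Cdh5 as the risers. Emcn, a sialomucin of veins and capillaries, stood at 9.68, 4.96 and 8.42 CPM in the controls and 63.3, 44.8 and 79.4 CPM at D5 (log2 3.03 ± 0.32, adjusted p = 8.1e-05). The groups did not overlap. Mural cell markers split into 2 that rose and 2 that fell (2810 to 5445 CPM against 2125 to 3867), and risers numbered 1 without D5 replicate 2 or control replicate 1, 4 without control replicate 3 and 4 with limma voom, and fallers numbered 1 without D5 replicate 1 or 3 or control replicate 3 or 4 and 1 with DESeq2.

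Calls in the neural lists were few and went in both directions. A single riser or faller in lists this short is not set apart from 13.2% and 10.7% of all genes. Of 8 astrocyte markers 2 rose and 2 fell (518 to 590.2 CPM against 617 to 661), and fallers numbered 1 without D5 replicate 3 or control replicate 4. Both fallers fell at least 2-fold. Gjb6 was 1 of them (log2 -1.04, adjusted p = 0.0151), and its call ended without D5 replicate 3 (adjusted p = 0.0739) and control replicate 4 (adjusted p = 0.0591). Gfap, the filament protein of reactive astrocytes, was at 6.61, 9.19 and 5.07 CPM in the controls and 29.8, 96.8 and 45.5 CPM at D5 (log2 3.04 ± 0.41, adjusted p = 0.000325, and the log2 value was 2.45 without D5 replicate 2). The water channel gene Aqp4 was at 0.490, 2.17 and 2.97 CPM in the controls and 9.65, 38.00 and 20.8 CPM at D5 (log2 3.55 ± 0.58, adjusted p = 0.00101). No D5 library of Gfap or Aqp4 overlapped a control. Of 5 neuron markers 1 rose and 1 fell (48.4 to 65.0 CPM against 35.6 to 51.1), and fallers numbered 0 without D5 replicate 2 or 3 or control replicate 4 and 2 with DESeq2. Slc32a1, of inhibitory neurons, had 0 counts in all 6 libraries. Of 6 oligodendrocyte markers 1 rose (87.5 to 117.8 CPM against 93.6 to 173.6), and risers numbered 0 without control replicate 4, and fallers numbered 1 without control replicate 1 and 1 with DESeq2 or no filter on low counts.

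Of 7 markers of oligodendrocyte precursors 3 rose and 1 fell (1471 to 1662 CPM against 1070.2 to 1199), and fallers numbered 2 without D5 replicate 2. The faller was Pdgfra, which fibroblasts share. Of 8 Schwann cell markers 1 rose and 1 fell (184 to 244 CPM against 186 to 343), and risers numbered 0 without D5 replicate 3 or control replicate 1, and fallers numbered 0 without D5 replicate 1 or 3 or control replicate 1 or 4 and 3 without D5 replicate 2. Of 4 ependymal markers 1 fell (84.9 to 92.3 CPM against 55.2 to 63.3). Haemoglobin genes led the erythroid list, in which 2 of 6 fell (14.4 to 41.6 CPM against 4.03 to 13.1), and fallers numbered 1 without D5 replicate 2 or 3 or control replicate 1, 4 without D5 replicate 1 and 1 with limma voom. The part of these other cells in each result below was not tested, apart from the values given beside it. In bulk RNA such as this, fewer cells of a type and less RNA per cell cannot be told apart.

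**Figure D1:**
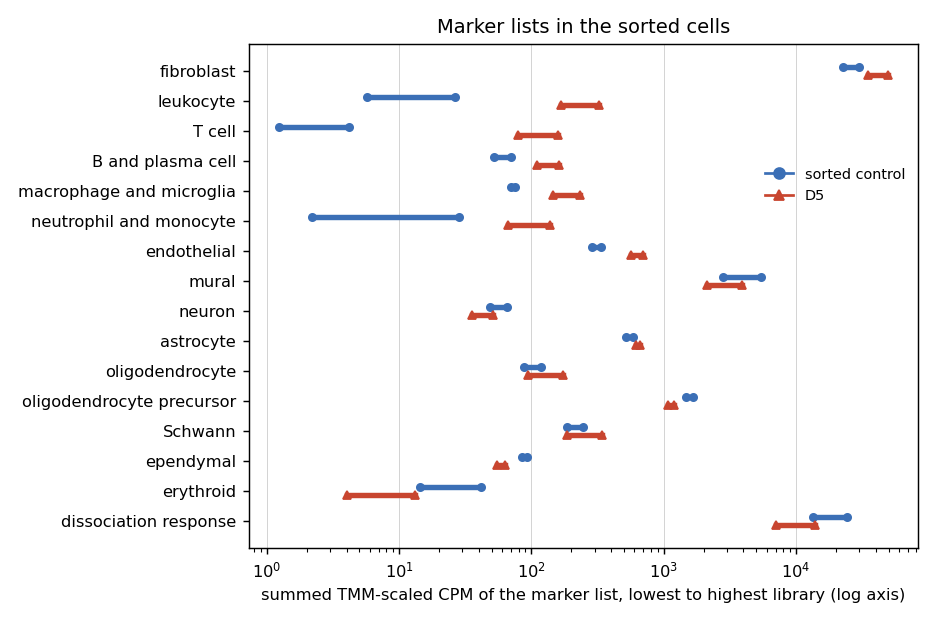
Summed TMM-scaled CPM (log axis) of each marker list, from the lowest to the highest library, in the 3 sorted control libraries (circles) and the 3 D5 libraries (triangles). The leukocyte, T cell, B and plasma cell, macrophage and microglia, and neutrophil and monocyte ranges at D5 lie wholly above those of the controls. So do the endothelial, astrocyte and fibroblast ranges. The oligodendrocyte precursor, ependymal and erythroid ranges at D5 lie wholly below. The fibroblast list stays the largest sum in both groups.

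Of the 15972 genes tested, 3817 differed between D5 and control at an adjusted p under 0.05, which is 23.9%. More genes rose (2115, 13.2%) than fell (1702, 10.7%). These shares are the ones to set beside each list or family count in this account. They differed with expression level, as given below, and the lists were not matched to all genes by level. A change of at least 2-fold was found for 1323 risers (8.28% of genes tested) and 964 fallers (6.04%). The median log2 fold change was 1.30 among risers, -1.12 among fallers and 0.00 over all genes. The 3 D5 libraries did not overlap the 3 controls for 6686 genes (41.9%). Among the called genes 3754 had no overlap and 63 had some, so a lack of overlap adds little to a call. Without D5 replicate 3 the calls dropped to 2446, of which 986 fell, and without D5 replicate 1 the fallers dropped to 1125. No called gene changed direction when any library was left out.

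At least 8-fold rises were found for 436 genes, of which 335 had a mean under 1 CPM in controls and 9 a mean of at least 10 CPM there, and their median went from 0.297 CPM in controls to 6.98 CPM at D5. At least 8-fold falls were found for 117 genes, of which 83 had a mean under 1 CPM at D5, and their median went from 5.15 CPM in controls to 0.432 CPM at D5. The lower of the groups is the control for a rise and D5 for a fall, and a filter removed genes low in both, so the control levels of risers and fallers are not compared. Among the 1646 genes with a mean of at least 100 CPM over the 6 libraries, 18.5% rose and 22.2% fell. In the 7774 genes with a mean of 10 to 100 CPM, 14.7% rose and 12.5% fell. Of the 5987 genes with 1 to 10 CPM, 10.3% rose and 5.85% fell.

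**Figure D2:**
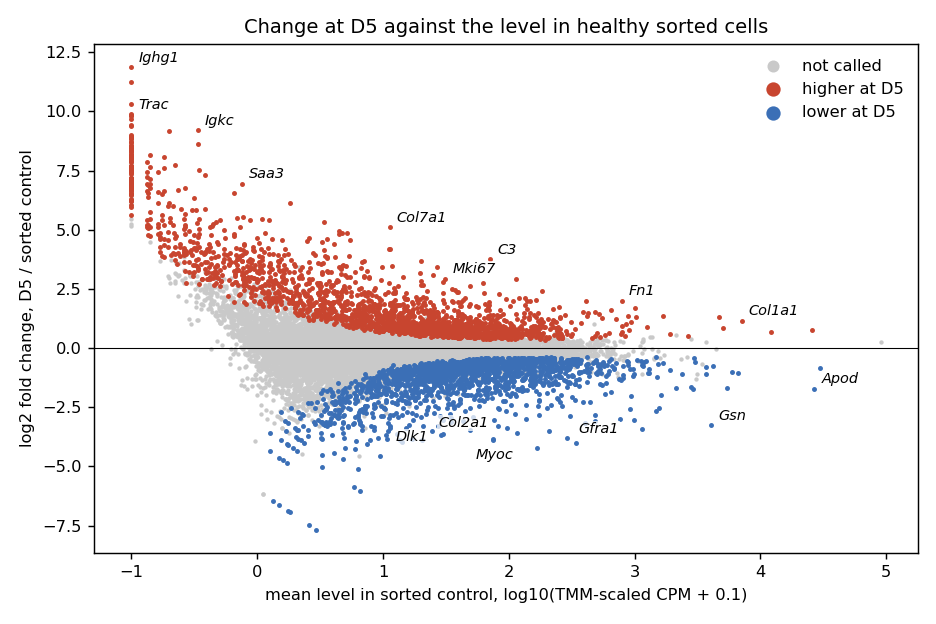
Fitted log2 fold change of each of the 15972 tested genes (D5 over sorted control) against its mean level in sorted control, as log10 of TMM-scaled CPM plus 0.1; red and blue points are genes called higher or lower at an adjusted p under 0.05. The steepest rises sit at the left edge, where control levels are near 0, whereas Gsn, Gfra1, Myoc and Col2a1 fell from well-measured control levels.

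Weighed by reads rather than by fold, mitochondrial ribosomal RNAs, collagens and fibronectin were among the largest gains. Apod, Gsn and the matrix gene Dcn were among the largest losses. Summed over all tested genes, mean levels rose by 198922 CPM and fell by 197355 CPM. The 10 largest gains made up 35.4% of all gains and the 10 largest losses 27.1% of all losses, whether called or not. Among called genes the mitochondrial ribosomal RNAs mt-Rnr2 and mt-Rnr1 were 2 of the 10 largest gains (log2 0.75 ± 0.15 and 0.68 ± 0.16, adjusted p = 0.00428 and 0.00771). Another 7 were matrix genes, namely Col1a1, Col3a1, Col1a2, Col4a1, Col4a2, Fn1 and Bgn. Col3a1, the chain of collagen III, stood at 3712, 5880.3 and 4502 CPM in the controls and 11922, 9328 and 13952 CPM at D5. Every D5 library was above every control (log2 1.32 ± 0.29, adjusted p = 0.00568).

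Collagen IV is the network collagen of basement membranes. Its chain gene Col4a1 was at 1302, 2010.4 and 1705 CPM in the controls and 3905, 3738 and 5254 CPM at D5 (log2 1.36 ± 0.30, adjusted p = 0.00581). The partner chain Col4a2 rose by a log2 value of 1.31 ± 0.33 (adjusted p = 0.0119), and the call ended without D5 replicate 3 (adjusted p = 0.0548) and control replicate 1 (adjusted p = 0.0534). Of the 5 collagen genes among the 10 gains, Col1a2 had the smallest fold change (log2 0.85 ± 0.27, adjusted p = 0.0365), and the call ended without D5 replicate 1 (adjusted p = 0.089), D5 replicate 3 (adjusted p = 0.127), control replicate 1 (adjusted p = 0.132), control replicate 3 (adjusted p = 0.0546) and control replicate 4 (adjusted p = 0.0786). Biglycan, the small proteoglycan encoded by Bgn, rose from 880.3 ± 103 to 2246 ± 315 CPM (log2 1.35 ± 0.23, adjusted p = 0.00127).

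The 10 largest losses among called genes were Apod, Malat1, Egr1, Gsn, Dcn, Lrp1, Lama2, Col15a1, Sparcl1 and Ahnak. Apod, which encodes the lipid carrier apolipoprotein D, was at 26382, 28367 and 25648 CPM in the controls and 9917, 9883 and 4543 CPM at D5 (log2 -1.72 ± 0.35, adjusted p = 0.00367). D5 replicate 3 was the lowest of all, and none of the D5 libraries reached a control. Gsn encodes gelsolin, which severs actin filaments and exists in a secreted form, and it was at 4472, 4071 and 3731 CPM in the controls and 437, 572 and 267 CPM at D5. The groups lay far apart for this gene (log2 -3.27 ± 0.30, adjusted p = 4.96e-05), the steepest fall among the 10. Lama2, the chain of the laminin found around muscle, vessels and meninges, was at 2873, 3134 and 2713 CPM in the controls and 841, 1002 and 775 CPM at D5 (log2 -1.74 ± 0.18, adjusted p = 7.18e-05). Lrp1, an endocytic receptor, was about the same in all 3 libraries of each group, with 5823, 6031 and 6109 CPM in the controls and 2837, 3111 and 2972 CPM at D5 (log2 -1.01 ± 0.12, adjusted p = 0.000169). Col15a1, a collagen of basement membrane zones, fell from 3708 ± 424 to 1722 ± 431 CPM (log2 -1.11 ± 0.17, adjusted p = 0.000831), and Sparcl1, a secreted matricellular protein, from 2809 ± 364 to 887 ± 299 CPM (log2 -1.66 ± 0.27, adjusted p = 0.00103).

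Malat1, a nuclear long noncoding RNA, had a log2 fold change of -0.84 ± 0.20 (adjusted p = 0.00893). For the large scaffold gene Ahnak it was -0.76 ± 0.20 (adjusted p = 0.0161), and the call ended without D5 replicate 3 (adjusted p = 0.0774) and control replicate 1 (adjusted p = 0.0604). Egr1, an immediate-early transcription factor that tissue dissociation also induces, was at 6160.5, 3906 and 6181 CPM in the controls and 2359, 1255 and 1509 CPM at D5 (log2 -1.67 ± 0.37, adjusted p = 0.00605). Beside it, the dissociation list of 20 genes had a summed level of 13317 to 24215 CPM in controls and 7056 to 13814 CPM at D5, with 6 members that fell and 1 that rose. In that list risers numbered 0 without D5 replicate 3 or control replicate 1, and fallers numbered 1 without D5 replicate 3 or control replicate 1, 2 without D5 replicate 2 or control replicate 4, 10 without D5 replicate 1 or control replicate 3, 11 without D10 replicate 3 and 14 with no filter on low counts. The immediate-early gene Fosb, at 3108 to 1255 CPM, was not called (log2 -1.31 ± 0.58, adjusted p = 0.123). The part of dissociation in the falls of immediate-early genes was not tested.

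**Figure D3:**
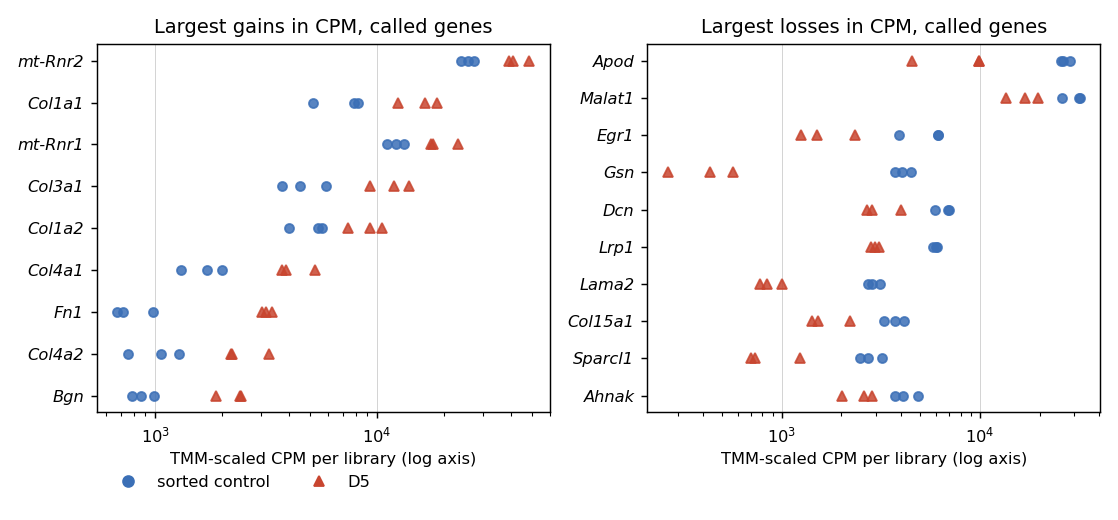
TMM-scaled CPM of each sorted control library (circles) and each D5 library (triangles), on a log axis, for 9 of the 10 called genes with the largest gain (left) and the 10 with the largest loss (right) in mean CPM. No D5 library of these genes overlaps a control library, and Gsn shows the widest gap.

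Genes at or near 0 counts in healthy sorted cells included genes of antibody-secreting cells, T cells and secreted products. Among genes at 0 in all 3 controls, the 5 with most counts at D5 were Ighg1, Mmp10, Ccl22, Trac and Il7r. Ighg1, the constant region of an immunoglobulin G1 heavy chain, had 0 counts in all 3 controls and 53.6, 34.4 and 71.2 CPM at D5. This is at least 502-fold higher, taking 3 counts over the control group as the floor. Immunoglobulin constant genes resemble one another, so reads may be split between them. Igkc, the kappa light chain constant region, was at 0, 0.516 and 0.191 CPM in the controls and 201, 144 and 115 CPM at D5, and Ighg2b at 0.612, 0 and 0.0957 CPM in the controls and 66.99, 122 and 84.6 CPM at D5. With limma voom the calls of Igkc, Ighg2b, Ighg2c and Igj ended (adjusted p = 0.0798, 0.315, 0.546 and 0.0817). For Ighg2c, with 3 counts in the controls, the ratio was 654 (95% counting interval 223 to 3174). The J chain gene Igj, which joins secreted antibodies, had 0 counts in controls and was at least 112-fold higher. Leaving out 1 library moved these fitted values, which depend on counts near 0, so that the log2 value of Igkc was 10.29 without control replicate 3, the log2 value of Igj was 8.83 without D5 replicate 1, the log2 value of Ighg2c was 9.92 without control replicate 4 and the log2 value of Ighg2b was 10.48 without control replicate 1 and 8.06 without control replicate 3.

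Of the T cell genes, Trac, the constant region of the T cell receptor alpha chain, was at 0 in controls and 11.9, 19.9 and 8.55 CPM at D5, at least 126-fold higher. Il7r, a receptor that keeps T cells alive, was at least 122-fold higher, and the costimulatory receptor Icos at least 119-fold. Cd4, which marks helper T cells, was at 0.490, 0.413 and 0.862 CPM in the controls and 22.1, 40.95 and 18.8 CPM at D5 (log2 5.48 ± 0.44, adjusted p = 3.06e-05). Counts of Foxp3, the factor of regulatory T cells, gave 0.612, 0.930 and 0.862 CPM in the controls and 6.91, 12.5 and 6.05 CPM at D5 (log2 3.37 ± 0.83, adjusted p = 0.0108). The Foxp3 call ended with a replicate block (adjusted p = 0.0524). No D5 library of these genes overlapped a control, which for Trac, Il7r and Icos follows from the rule that chose them. Il2rb, a chain of the receptors for interleukins 2 and 15, had a ratio of 328 (95% counting interval 90.5 to 2718), Gimap4, a GTPase of lymphocytes, one of 324 (95% counting interval 57.6 to 12826), and Cd52, a surface glycoprotein of leukocytes, one of 289.7 (95% counting interval 51.5 to 11491). For these the log2 value of Il2rb was 10.69 without control replicate 1, the log2 value of Gimap4 was 9.63 without control replicate 4 and the log2 value of Cd52 was 9.49 without control replicate 1. The T cell and leukocyte marker lists rose in the same libraries, as given above.

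Among genes at 0 in all 3 controls there were also secreted products. Mmp10 encodes stromelysin 2, a matrix protease, and stood at 27.3, 27.1 and 47.4 CPM at D5, at least 318-fold higher. The level of Mmp10 in the 3 D10 libraries was 0, 0.481 and 4.47 CPM. Ccl22, a chemokine that draws T helper and regulatory T cells, was at 18.8, 21.8 and 14.2 CPM at D5, at least 172-fold higher. Mcoln2, a lysosomal cation channel, had a ratio of 245 (95% counting interval 83.5 to 1192), and Il1b, the gene of interleukin 1 beta, one of 404 (95% counting interval 72.1 to 16021). In these 2 cases the log2 value of Mcoln2 was 10.85 without control replicate 1 and 7.14 without control replicate 4, and the log2 value of Il1b was 9.97 without control replicate 1. In all, 912 genes had 0 counts in the controls and more than 3 in the D5 libraries together, against 789 genes the other way round. Those that also had a count in every library of the other group numbered 351 and 57.

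Because of these near-zero starts, the 15 largest rises were also taken among called genes with a mean of at least 10 CPM in controls, a rule chosen after the values were seen. Col7a1 led them. It encodes collagen VII, which forms anchoring fibrils under skin epithelium, and stood at 7.96, 10.6 and 14.9 CPM in the controls and 293, 247 and 626 CPM at D5. Every D5 library was more than 15 times the highest control (log2 5.11 ± 0.61, adjusted p = 0.000157). Dclk1, a kinase that binds microtubules, was at 12.2, 9.09 and 12.6 CPM in the controls and 178, 184 and 259.7 CPM at D5 (log2 4.19 ± 0.28, adjusted p = 1.18e-05). Col8a1, a short-chain collagen of vessel walls and of Descemet's membrane, was at 99.4, 105 and 137 CPM in the controls and 794, 700.1 and 1113 CPM at D5 (log2 2.93 ± 0.29, adjusted p = 6.59e-05). Adam12, a membrane protease of activated mesenchymal cells, rose from 29.7 ± 10.99 to 208 ± 39.1 CPM (log2 2.81 ± 0.30, adjusted p = 8.38e-05). Prg4, which encodes lubricin, the lubricating proteoglycan of joints, was at 33.3, 10.3 and 15.6 CPM in the controls and 242, 97.3 and 185 CPM at D5 (log2 3.16 ± 0.52, adjusted p = 0.00107). At D10 Prg4 stood at 10.5, 22.7 and 42.9 CPM.

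Several other genes of this group are known from innate immunity. C3, the central complement component, was at 80.3, 53.6 and 77.9 CPM in the controls and 1035, 1048 and 789 CPM at D5. The control and D5 ranges were far apart (log2 3.76 ± 0.23, adjusted p = 1.18e-05). Iigp1, an interferon-inducible GTPase that attacks vacuoles of parasites, was at 30.6, 17.8 and 31.98 CPM in the controls and 267, 282 and 324 CPM at D5 (log2 3.44 ± 0.48, adjusted p = 0.000403). Tnfaip3, also called A20, is an enzyme that limits NF-kB signalling, and was at 98.8, 24.3 and 62.6 CPM in the controls and 809.6, 185 and 263 CPM at D5. D5 replicate 1 was far above the other two, and the log2 value was 1.85 without D5 replicate 1 (adjusted p of all libraries = 0.00464). Tnfaip2, another gene induced by tumour necrosis factor, rose from 20.1 ± 6.01 to 145 ± 18.8 CPM (log2 2.85 ± 0.28, adjusted p = 6.59e-05). Slc39a14, a zinc and manganese importer, stood at 24.5, 26.3 and 23.4 CPM in the controls and 213, 175 and 249.7 CPM at D5, with close values inside each group (log2 3.10 ± 0.32, adjusted p = 8.1e-05).

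Cd74, the invariant chain of class II antigen presentation, was at 11.3, 16.9 and 4.79 CPM in the controls and 246, 225 and 126 CPM at D5 (log2 4.18 ± 0.41, adjusted p = 6.59e-05). Ctsc, which encodes cathepsin C, a protease that activates serine proteases of immune cells, was at 21.2, 25.1 and 13.98 CPM in the controls and 272, 197 and 314 CPM at D5 (log2 3.70 ± 0.39, adjusted p = 8.1e-05). Lyz2, the lysozyme of myeloid cells, was at 24.4, 16.3 and 1.91 CPM in the controls and 147, 130.2 and 57.3 CPM at D5 (log2 2.99 ± 0.65, adjusted p = 0.0059), and the log2 value was 3.62 without control replicate 1. Beside these, the macrophage and microglia list rose from 69.9 to 75.3 CPM in controls to 145 to 233 CPM at D5. Its part in the rises of Cd74, Ctsc and Lyz2 was not tested. Pla1a, a phospholipase specific for phosphatidylserine, rose from 11.7 ± 3.68 to 132 ± 12.6 CPM (log2 3.49 ± 0.32, adjusted p = 5.95e-05).

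The 15 largest falls among called genes without overlap and with a mean of at least 10 CPM in controls were led by Myoc, Wnk2 and Mlxipl. Myoc, the secreted glycoprotein myocilin, was at 155, 153 and 190.0 CPM in the controls and 7.99, 18.1 and 0.790 CPM at D5. D5 replicate 3 was close to 0 (log2 -4.21 ± 0.81, adjusted p = 0.00285), and the log2 value was -5.20 without D5 replicate 2. Gfra1, a receptor for the neurotrophic factor GDNF, was at 259.9, 349.9 and 269 CPM in the controls and 19.8, 32.2 and 10.9 CPM at D5 (log2 -3.80 ± 0.45, adjusted p = 0.000159). Wnk2, a kinase that regulates ion transport, was at 232, 439 and 352 CPM in the controls and 12.6, 32.5 and 18.03 CPM at D5 (log2 -4.02 ± 0.48, adjusted p = 0.000157). Gria1, a glutamate receptor subunit, fell from 74.8 ± 22.2 to 5.15 ± 2.97 CPM (log2 -3.87 ± 0.57, adjusted p = 0.000548). Cntn3, a contactin of the immunoglobulin adhesion family, was at 67.6, 86.9 and 68.8 CPM in the controls and 4.29, 6.18 and 5.26 CPM at D5, and the controls and D5 libraries were each close together (log2 -3.83 ± 0.48, adjusted p = 0.000191).

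Col2a1, the collagen of cartilage, was at 88.2, 123 and 140.1 CPM in the controls and 15.97, 6.44 and 6.98 CPM at D5 (log2 -3.57 ± 0.37, adjusted p = 8.1e-05). Its 3 D10 libraries stood at 45.1, 76.8 and 100.2 CPM. Dlk1, an imprinted membrane protein of precursor cells, was at 38.1, 31.3 and 19.6 CPM in the controls and 1.07, 4.16 and 1.97 CPM at D5 (log2 -3.63 ± 0.47, adjusted p = 0.000232), and the log2 value was -4.27 without D5 replicate 2. Mlxipl encodes ChREBP, a transcription factor that answers glucose, and was at 16.5, 17.7 and 8.23 CPM in the controls and 1.67, 0.403 and 0.526 CPM at D5 (log2 -3.98 ± 0.93, adjusted p = 0.00859), and the log2 value was -4.88 without D5 replicate 1. Cbs, the enzyme that makes cystathionine from homocysteine, was at 12.5, 16.01 and 12.3 CPM in the controls and 0.596, 0.806 and 1.32 CPM at D5 (log2 -3.89 ± 0.40, adjusted p = 7.72e-05). The potassium channel Kcnk1 fell from 20.2 ± 4.67 to 1.34 ± 0.751 CPM (log2 -3.89 ± 0.67, adjusted p = 0.00145) and Trpm5, a cation channel known from taste cells, from 17.1 ± 9.79 to 1.19 ± 0.216 CPM (log2 -3.82 ± 0.61, adjusted p = 0.000904). Usp50 was at 24.2, 38.2 and 23.5 CPM in the controls and 2.86, 2.55 and 1.18 CPM at D5 (log2 -3.69 ± 0.73, adjusted p = 0.00324). The Riken transcripts D430018E03Rik, 2310050B05Rik and 4933433C11Rik, whose calls ended with limma voom (adjusted p = 0.115, 0.0550 and 0.164), complete the 15. For each of these 3, control replicate 3 lay below the other controls. D430018E03Rik was at 18.2, 2.17 and 11.8 CPM in the controls and 0.834, 0.671 and 0.658 CPM at D5, and the log2 value was -3.26 without control replicate 1.

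**Figure D4:**
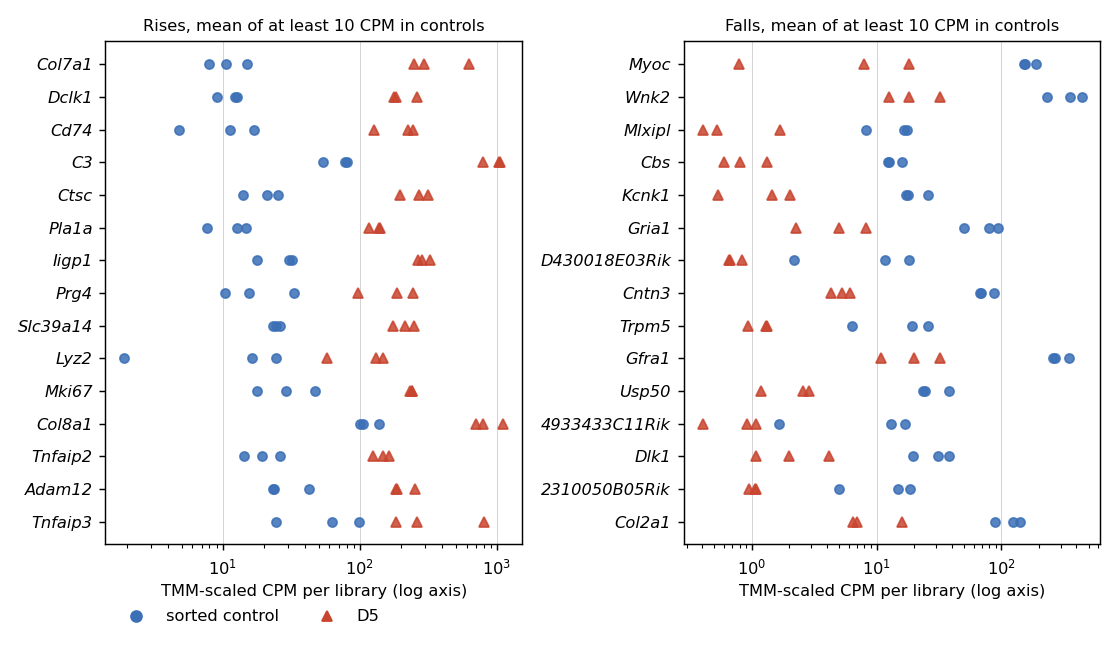
TMM-scaled CPM of each sorted control library (circles) and each D5 library (triangles), on a log axis, for the 15 called genes with the largest rises (left) and falls (right) that had a mean of at least 10 CPM in controls. C3 and Slc39a14 show tight groups far apart, whereas Lyz2 and the Rik transcripts have 1 control library well below the others.

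Of the 789 genes at 0 counts in every D5 library, those with most control counts were Gm15984 (1.10, 1.14 and 6.32 CPM in controls, at least 23.7-fold lower, taking 3 counts over the D5 group as the floor), Gm12709 (at least 20.2-fold lower), Gm20428 (at least 13.3-fold lower) and the identifier ENSMUSG00000078774 listed as Hps3 (at least 12.98-fold lower). For this last entry control replicate 3 was also at 0, and its call (adjusted p = 0.0423) ended without any D5 library or without control replicate 1 or 4 (adjusted p = 0.0822 to 0.115) and with limma voom (adjusted p = 0.226). Scgb1c1 also had 0 counts at D5 but was too low to be tested.

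Genes of cell division made up the class with the largest share of risers. In the list of cyclins, mitotic kinases and spindle genes 38 of 54 tested members rose and 1 fell, and the median log2 fold change was 2.40, beside 13.2% risers, 10.7% fallers and a median of 0.00 over all genes. Of the 39 called members 34 had a mean under 10 CPM in controls. Ttk, the spindle checkpoint kinase MPS1, was at 0, 0.207 and 0.287 CPM in the controls and 4.17, 6.31 and 5.26 CPM at D5 (log2 4.81 ± 1.11, adjusted p = 0.00771). Nuf2, a subunit of the kinetochore complex that holds microtubules, was at 1.35, 0.723 and 0 CPM in the controls and 12.9, 13.2 and 15.3 CPM at D5 (log2 4.35 ± 0.77, adjusted p = 0.00173), and the log2 value was 5.23 without control replicate 1 and 3.72 without control replicate 4. From the kinesin family, the microtubule-depolymerising Kif2c was at 0.245, 0.103 and 0.383 CPM in the controls and 8.34, 9.53 and 8.03 CPM at D5 (log2 5.05 ± 0.62, adjusted p = 0.000183). No D5 library of these 3 genes overlapped a control.

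At higher levels, the topoisomerase Top2a went from 9.52 to 69.8 CPM (log2 2.88 ± 0.44), the kinetochore protein Cenpf from 5.91 to 54.8 CPM (3.21 ± 0.27), the spindle assembly factor Tpx2 from 4.50 to 39.4 CPM (3.13 ± 0.44) and the cytokinesis scaffold Anln from 4.84 to 29.5 CPM (2.61 ± 0.29). Pttg1, which encodes securin, the inhibitor of sister chromatid separation, was the member that fell, with 14.9, 17.7 and 24.3 CPM in the controls and 8.22, 8.996 and 5.79 CPM at D5 (log2 -1.31 ± 0.33, adjusted p = 0.013), but the call ended without D5 replicate 3 (adjusted p = 0.0629) and control replicate 4 (adjusted p = 0.0585). In the homologous recombination and repair list 8 of 45 rose (17.8%) and 1 fell (2.22%), beside 13.2% and 10.7% of all genes. The faller was Fanci, a Fanconi anaemia protein of crosslink repair, with 29.8, 26.4 and 42.99 CPM in the controls and 7.51, 4.97 and 6.98 CPM at D5 (log2 -2.35 ± 0.36, adjusted p = 0.000686). All 3 D5 libraries of Fanci were far below the lowest control. In the repair list risers numbered 4 without D5 replicate 3 or control replicate 4 and 5 without D5 replicate 2, and fallers numbered 2 without control replicate 3 or D10 replicate 3 and 2 with DESeq2 or no filter on low counts, and in the division list fallers numbered 0 without D5 replicate 3 or control replicate 4, 2 without D5 replicate 2 or D10 replicate 3 and 2 with limma voom, DESeq2, no filter on low counts, the 6 libraries alone, DESeq2 size factors or upper quartile scaling.

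Histone genes rose in 33 of 62 cases and fell in 2 (median log2 1.70), and risers numbered 19 without D5 replicate 3 and 21 without control replicate 4, and fallers numbered 0 without D5 replicate 3 or control replicate 4, 1 without D5 replicate 1 or 2 and 1 with limma voom or the 6 libraries alone. Reads may be shared between near-identical histone genes. Hist1h1b, a linker histone made in S phase, went from 3.56 to 32.1 CPM (log2 3.20 ± 0.57). In the family of replication helicase and origin genes 7 of 40 rose (17.5%) and 0 fell, beside 13.2% and 10.7% of all genes. Without control replicate 3 the risers of this family numbered 4 and the fallers 1. Mcm5, a helicase subunit, was at 6.86, 3.41 and 3.26 CPM in the controls and 19.5, 21.6 and 19.6 CPM at D5 (log2 2.18 ± 0.47, adjusted p = 0.00526). Among nucleotide synthesis genes 9 of 36 rose and 4 fell, and fallers numbered 2 without D5 replicate 3. Rrm2, the S phase subunit of ribonucleotide reductase, had a log2 fold change of 3.23 ± 0.59 (adjusted p = 0.00223), and the log2 value was 3.94 without control replicate 1. Uck2, a uridine and cytidine kinase, was at 2.94, 5.99 and 4.02 CPM in the controls and 29.8, 27.4 and 34.9 CPM at D5 (log2 2.82 ± 0.33, adjusted p = 0.000144). Leukocytes that enter tissue can divide too. Beside these rises the summed leukocyte list was 168 to 324 CPM at D5, and its part in them was not tested.

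Promoters are shown for Mki67, for Ttk and Nuf2, the leading risers of the division class, and for Kif2c, the leading riser of the kinesin family. Late cell cycle promoters are known to carry paired elements, the cell cycle homology region (CHR, TTTGAA) and the CCAAT box. Each window covers 250 bases before to 50 bases after the annotated start (RefSeq, GRCm38.p6), written along the strand of the gene. Capitals mark matches to TTTGAA or CCAAT on either strand, which read TTCAAA or ATTGG when they lie on the other strand, and no match of one overlaps a match of the other here. They lie at chr7:135716330-135716629 on the minus strand (Mki67), chr9:83834439-83834738 on the plus strand (Ttk), chr1:169531415-169531714 on the minus strand (Nuf2) and chr4:117178723-117179022 on the minus strand (Kif2c).
Mki67: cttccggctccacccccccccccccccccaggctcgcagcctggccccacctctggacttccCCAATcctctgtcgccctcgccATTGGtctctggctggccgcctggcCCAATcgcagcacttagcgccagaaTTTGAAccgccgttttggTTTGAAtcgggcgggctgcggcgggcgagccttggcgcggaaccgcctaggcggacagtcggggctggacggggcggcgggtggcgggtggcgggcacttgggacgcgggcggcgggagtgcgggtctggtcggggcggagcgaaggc
Ttk: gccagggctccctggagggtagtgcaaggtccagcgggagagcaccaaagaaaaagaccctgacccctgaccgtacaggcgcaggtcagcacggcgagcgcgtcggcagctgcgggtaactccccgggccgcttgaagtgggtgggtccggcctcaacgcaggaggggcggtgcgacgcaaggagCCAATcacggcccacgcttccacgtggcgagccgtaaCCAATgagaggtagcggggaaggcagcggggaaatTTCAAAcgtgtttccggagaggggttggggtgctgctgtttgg
Nuf2: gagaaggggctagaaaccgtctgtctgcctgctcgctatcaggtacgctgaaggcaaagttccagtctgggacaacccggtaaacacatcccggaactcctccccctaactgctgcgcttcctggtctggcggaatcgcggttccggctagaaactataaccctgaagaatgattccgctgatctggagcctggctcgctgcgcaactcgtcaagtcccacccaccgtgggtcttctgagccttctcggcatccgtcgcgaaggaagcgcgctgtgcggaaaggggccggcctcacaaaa
Kif2c: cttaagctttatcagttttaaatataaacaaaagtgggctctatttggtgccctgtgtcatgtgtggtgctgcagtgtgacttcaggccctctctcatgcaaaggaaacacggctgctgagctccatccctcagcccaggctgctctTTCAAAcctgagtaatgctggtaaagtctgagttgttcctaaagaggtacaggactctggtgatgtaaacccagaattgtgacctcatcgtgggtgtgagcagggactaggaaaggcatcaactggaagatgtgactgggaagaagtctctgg

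The Mki67 window held 2 CHR and 3 CCAAT matches, the Ttk window 1 and 2, and the Kif2c window 1 and 0. The Nuf2 window had neither, which says only that these letters are not in this window. Over the 47 windows matched to 43 of the 54 division genes, 55.3% held TTTGAA and 70.2% held CCAAT on either strand. The shares were 17.9% and 37.4% over all 32851 windows of the table. Windows of all genes that rose (1888 windows of 1490 genes) held TTTGAA in 15.1% and CCAAT in 34.9% of cases. For genes that fell (1707 windows of 1279 genes) the shares were 11.6% and 36.8%, and for tested genes without a call (10819 windows of 8518 genes) 11.7% and 37.1%. The core of the interferon-stimulated response element, which reads GAAA, 2 bases of any kind and GAAA on either strand, was in 6.09% of windows of genes that rose, 2.40% of those that fell, 2.76% of those without a call and 3.44% of all windows. These shares are descriptions, and a match is not a measured binding site.

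Cytokines, growth factors and their receptors changed in both directions. Of 37 cytokines and chemokines 12 rose (32.4%) and 3 fell (8.11%), beside 13.2% and 10.7% of all genes (median log2 0.75). Cxcl9 and Cxcl10, chemokines induced by interferon gamma that draw activated T cells, went from 4.64 to 136 CPM (log2 4.86 ± 0.65) and from 4.58 to 50.8 CPM (3.46 ± 0.36). Cxcl5, a chemokine for neutrophils with 2 counts in the controls, had a ratio of 116 (95% counting interval 31.8 to 969), and the log2 value was 9.13 without control replicate 4. Il33, an alarmin stored in stromal nuclei, fell with very close values, 151.01, 146 and 146 CPM in the controls and 60.4, 52.1 and 59.1 CPM at D5 (log2 -1.37 ± 0.15, adjusted p = 9.95e-05). Il17d, a member of the interleukin 17 family, was at 21.9, 17.04 and 15.1 CPM in the controls and 5.01, 4.16 and 2.63 CPM at D5 (log2 -2.19 ± 0.33, adjusted p = 0.000698). For neither gene did the groups overlap.

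Of 86 cytokine and growth factor receptors 29 rose and 19 fell (median log2 0.15). Receptors for inflammatory ligands were among the risers, such as Il1r1, the signalling receptor of interleukin 1 (69.7 to 273 CPM, log2 1.97 ± 0.20), Tnfrsf1b, a receptor of tumour necrosis factor (8.78 to 40.9 CPM, 2.22 ± 0.27), and Il4ra (36.3 to 111 CPM, 1.61 ± 0.34). Il18r1, the receptor of interleukin 18, with 2 counts in the controls, had a ratio of 206 (95% counting interval 56.5 to 1707), and the log2 value was 9.99 without control replicate 4. Growth factor receptors were among the fallers, such as Fgfr1 (749 to 301 CPM, log2 -1.31 ± 0.16), Tgfbr3, a coreceptor of TGF-beta (595 to 260.3 CPM, -1.19 ± 0.19), and Ntrk3, a neurotrophin receptor (203 to 54.2 CPM, -1.91 ± 0.24).  Ngfr, the low-affinity neurotrophin receptor, had the largest fall of the class after Gfra1. It was at 242, 674 and 546 CPM in the controls and 60.2, 79.2 and 66.5 CPM at D5, and the lowest control was 3 times the highest D5 library (log2 -2.83 ± 0.31, adjusted p = 0.000111).

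Among growth factors and morphogens 15 of 69 rose and 9 fell, and the 15 dropped to 8 without D5 replicate 1. Inhbb, an activin subunit, was at 3.80, 0.516 and 0.191 CPM in the controls and 11.6, 13.02 and 17.8 CPM at D5 (log2 3.28 ± 0.76, adjusted p = 0.0081), and the log2 value was 5.27 without control replicate 1. Ereg, the growth factor epiregulin, was at 0 in controls and 13.5, 0.269 and 1.97 CPM at D5. Most of it came from D5 replicate 1, and the log2 value was 6.34 without D5 replicate 1 and 9.13 without D5 replicate 2. The fold of Ereg was at least 52.3, and its call ended with limma voom (adjusted p = 0.0672). Bmp5, a bone morphogenetic protein, was at 163, 179 and 156 CPM in the controls and 44.8, 50.9 and 47.1 CPM at D5 (log2 -1.80 ± 0.23, adjusted p = 0.000199). Gas6, a ligand of TAM receptors that promotes clearance of dying cells, fell from 226 ± 12.8 to 66.6 ± 21.7 CPM (log2 -1.77 ± 0.21, adjusted p = 0.000166). In the family of fibroblast growth factors and their receptors 5 of 19 fell and 0 rose, with 1 riser without control replicate 1 or D10 replicate 3.

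The hedgehog, Notch and Hippo list had 6 risers and 7 fallers among 35. Gas1, a coreceptor for hedgehog ligands, was at 45.9, 31.3 and 39.6 CPM in the controls and 221, 161 and 224 CPM at D5 (log2 2.37 ± 0.21, adjusted p = 4.87e-05). The hedgehog target gene Gli1 went from 153 to 77.3 CPM (log2 -0.99 ± 0.19). The groups did not overlap for Gas1. The 6 risers dropped to 3 without D5 replicate 3.

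Clotting and lipid mediator genes also changed. Of 26 coagulation and plasminogen genes 11 rose (42.3%) and 2 fell (7.69%), beside 13.2% and 10.7% of all genes (median log2 0.64). F5, clotting factor V, was at 0.490, 0.413 and 0.766 CPM in the controls and 99.8, 28.6 and 35.5 CPM at D5 (log2 6.57 ± 0.80, adjusted p = 0.000174), and the log2 value was 5.79 without D5 replicate 1. Serpinb2, a plasminogen activator inhibitor with 0 counts in controls, was at least 51.1-fold higher, but the call ended without D5 replicate 3 (adjusted p = 0.0512) and control replicate 4 (adjusted p = 0.0566) and with limma voom (adjusted p = 0.0657). The urokinase receptor Plaur went from 3.43 to 22.5 CPM (log2 2.72 ± 0.36) and Tfpi2, a protease inhibitor of the matrix, from 4.72 to 25.9 CPM (2.45 ± 0.48). Thbs1, which encodes thrombospondin 1, fell from 684 ± 135 to 373 ± 43.1 CPM (log2 -0.87 ± 0.18, adjusted p = 0.00422). F3, tissue factor, had a log2 fold change of -0.67 ± 0.18 (adjusted p = 0.0165), and the call ended without D5 replicate 2 (adjusted p = 0.0654), D5 replicate 3 (adjusted p = 0.0878) and control replicate 4 (adjusted p = 0.0534). In the list fallers numbered 1 without D5 replicate 2 or 3 or control replicate 4.

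Of 48 genes of prostaglandin, leukotriene and nucleotide mediators 11 rose (22.9%) and 8 fell (16.7%), beside 13.2% and 10.7% of all genes. Slco2a1, the prostaglandin transporter, was at 3.06, 2.38 and 2.11 CPM in the controls and 20.3, 21.5 and 35.9 CPM at D5 (log2 3.36 ± 0.48, adjusted p = 0.000441). S1pr1, a sphingosine 1-phosphate receptor that endothelial cells and lymphocytes also use, was at 6.74, 5.47 and 6.22 CPM in the controls and 26.9, 29.7 and 30.4 CPM at D5 (log2 2.24 ± 0.23, adjusted p = 8.19e-05). P2ry1, an ADP receptor, was at 97.4, 151.42 and 93.7 CPM in the controls and 24.8, 32.6 and 26.3 CPM at D5 (log2 -2.03 ± 0.27, adjusted p = 0.000326). Ptgds, a prostaglandin D2 synthase of the meninges, fell from 89.4 ± 44.6 to 18.9 ± 7.93 CPM (log2 -2.24 ± 0.56, adjusted p = 0.0121), and the call ended without D5 replicate 3 (adjusted p = 0.058) and control replicate 4 (adjusted p = 0.0577). The 11 risers dropped to 7 without D5 replicate 2 or 3, and the 8 fallers to 5 without D5 replicate 3. In the wider family of G protein-coupled receptors 34 of 165 rose (20.6%) and 19 fell (11.5%), the latter 9 without D5 replicate 3. The endothelin receptors Ednra (44.4 to 193 CPM, log2 2.12 ± 0.26) and Ednrb (4.92 to 42.5 CPM, 3.11 ± 0.31) and the bradykinin receptors Bdkrb2 (3.29 to 13.4 CPM, 2.03 ± 0.38) and Bdkrb1 (0.737 to 9.53 CPM, 3.70 ± 0.64) rose.

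**Figure D5:**
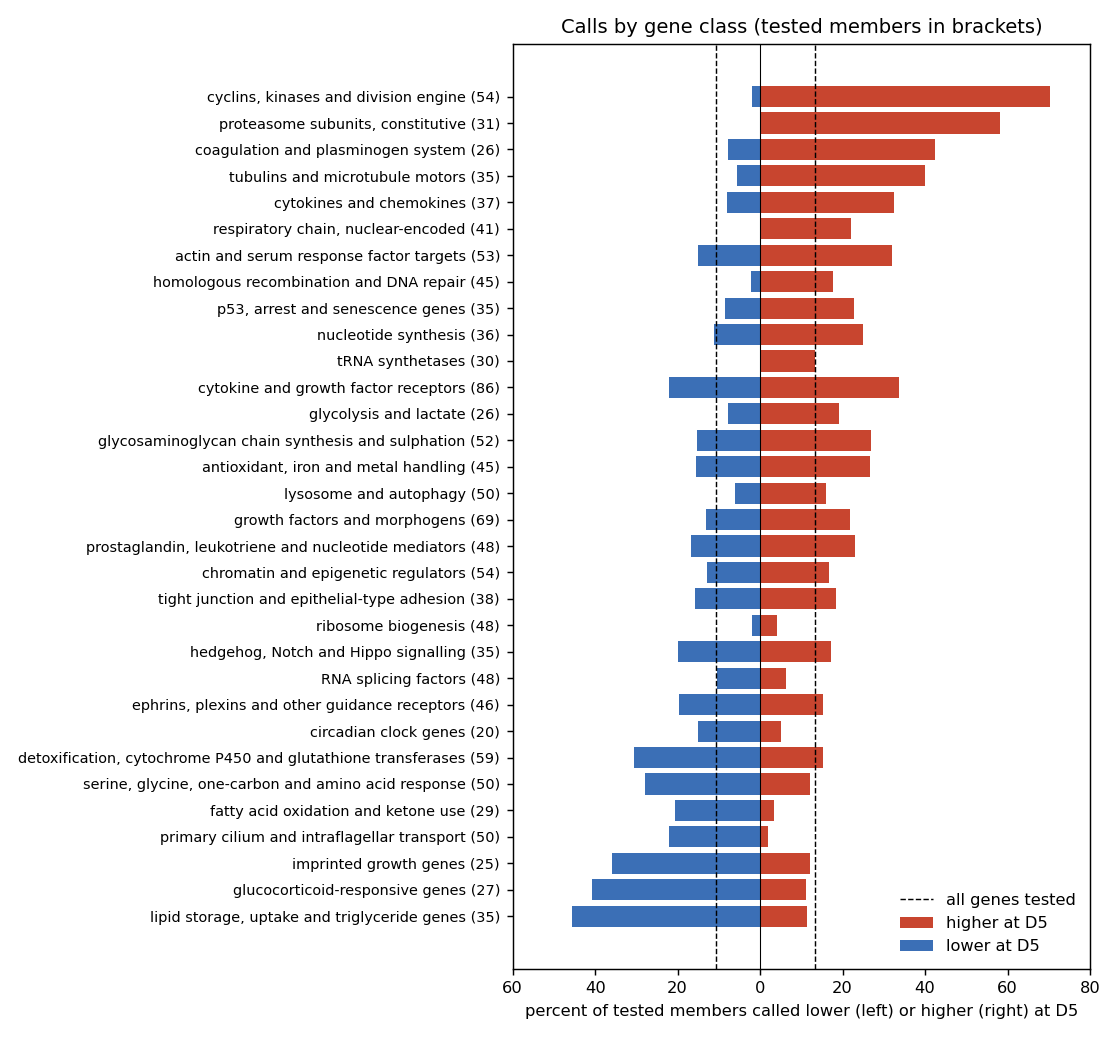
Percentage of the tested members of each gene class called higher (red, right) or lower (blue, left) at D5, with the number of tested members in brackets and dashed lines at the shares over all genes tested (13.2% and 10.7%). Division and proteasome genes have the largest shares called higher, and lipid storage, glucocorticoid-responsive and imprinted genes the largest shares called lower.

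Called subunits of the proteasome, the complex that degrades tagged proteins, were all higher. Of 31 constitutive subunits 18 rose and 0 fell (median log2 0.61), with fitted values between 0.47 and 1.20 among risers. Psmd8, a lid subunit, was at 45.2, 29.1 and 37.2 CPM in the controls and 101, 63.2 and 91.6 CPM at D5 (log2 1.20 ± 0.20, adjusted p = 0.00127). Further examples were the core subunits Psmb4 (26.2 to 49.2 CPM, log2 0.91 ± 0.20) and Psma7 (34.3 to 61.1 CPM, 0.83 ± 0.18) and the ATPase Psmc3 (51.8 to 84.2 CPM, 0.70 ± 0.15). The count is sensitive to single libraries, with 8 risers without D5 replicate 3, 9 without D5 replicate 1, 10 without control replicate 4 and 11 without control replicate 1.

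Counts of energy and protein synthesis genes are set against the 13.2% of all genes that rose and the 10.7% that fell. Of 41 nuclear-encoded respiratory chain genes 9 rose (21.95%) and 0 fell (median log2 0.44), and the 9 dropped to 4 without D5 replicate 1 and 5 without D5 replicate 3. Uqcrq, a subunit of complex III, was at 16.4, 32.9 and 26.7 CPM in the controls and 59.6, 48.3 and 50.01 CPM at D5 (log2 1.05 ± 0.25, adjusted p = 0.00845). Among 30 tRNA synthetases 4 rose (13.3%) and 0 fell, led by Kars, the lysine enzyme, which went from 36.7 ± 4.74 to 76.9 ± 6.13 CPM (log2 1.06 ± 0.19, adjusted p = 0.00192). Of 26 glycolysis genes 5 rose (19.2%) and 2 fell (7.69%), and risers numbered 0 without control replicate 4, 1 without D5 replicate 3, 2 without D5 replicate 1 and 3 without control replicate 1 or 3, and fallers numbered 0 without D5 replicate 2 or control replicate 1 or 4, 1 without D5 replicate 1 or 3 and 1 with limma voom. Of 48 ribosome biogenesis genes 2 rose (4.17%) and 1 fell (2.08%), and risers numbered 0 without D5 replicate 1, 1 without D5 replicate 3 or control replicate 4 or D10 replicate 3, 1 with the 6 libraries alone, DESeq2 size factors or upper quartile scaling and 4 with no filter on low counts, and fallers numbered 0 without D5 replicate 2 or 3 or control replicate 1 or 4, 4 without control replicate 3, 0 with limma voom or the 6 libraries alone and 4 with DESeq2 or no filter on low counts. Symbols of cytosolic ribosomal proteins, pseudogenes included, gave 37 risers (26.1%) and 3 fallers (2.11%) of 142, and risers numbered 22 without D5 replicate 1 and 24 without D5 replicate 3, and fallers numbered 0 without D5 replicate 1 or 2 or control replicate 1 or 4, 1 without D5 replicate 3, 0 with no filter on low counts and 1 with limma voom.

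Among lipid, detoxification and amino acid enzymes, more genes fell than rose. Of 35 genes of lipid storage, uptake and triglyceride synthesis 16 fell and 4 rose (median log2 -0.66). Mgll, which cleaves monoglycerides, was at 24.5, 35.3 and 36.8 CPM in the controls and 9.65, 9.40 and 7.11 CPM at D5 (log2 -1.88 ± 0.23, adjusted p = 0.000183). Lpl, lipoprotein lipase, went from 109 to 44.1 CPM (log2 -1.30 ± 0.16), Fasn, fatty acid synthase, from 293 to 155 CPM (-0.92 ± 0.19) and the regulator Srebf1 from 201 to 98.03 CPM (-1.04 ± 0.19). The risers included Fabp5, a fatty acid carrier, with 4.16, 10.02 and 10.6 CPM in the controls and 25.98, 26.6 and 27.6 CPM at D5 (log2 1.68 ± 0.37, adjusted p = 0.00641), and Plin2, a coat protein of lipid droplets, with 15.3, 22.9 and 21.3 CPM in the controls and 39.7, 36.8 and 49.4 CPM at D5 (log2 1.08 ± 0.21, adjusted p = 0.00275). In the fatty acid oxidation list 6 of 29 fell and 1 rose, and fallers numbered 1 without D5 replicate 1, 2 without D5 replicate 3 and 3 without D5 replicate 2 or control replicate 3.

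Of 59 detoxification, cytochrome P450 and glutathione transferase genes 18 fell and 9 rose (median log2 -0.46). Ephx1, which hydrolyses epoxides, was at 234, 284 and 246 CPM in the controls and 58.05, 61.4 and 40.1 CPM at D5 (log2 -2.26 ± 0.27, adjusted p = 0.000174). Gstm7, a glutathione transferase, fell from 15.98 ± 2.17 to 3.17 ± 1.23 CPM (log2 -2.33 ± 0.40, adjusted p = 0.00146). In the other direction, Ahr, the receptor for dioxin and tryptophan metabolites, was at 14.8, 9.92 and 14.6 CPM in the controls and 88.3, 62.97 and 93.1 CPM at D5 (log2 2.63 ± 0.25, adjusted p = 6.59e-05). Cyp1b1, a known target of this receptor, went from 413 to 1639 CPM (log2 1.99 ± 0.21). Gsto1, an omega class glutathione transferase, rose from 5.22 ± 2.65 to 30.9 ± 7.09 CPM (log2 2.57 ± 0.36, adjusted p = 0.000433).

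In the serine, glycine, one-carbon and amino acid response list 14 of 50 fell and 6 rose (median log2 -0.28), and risers numbered 3 without D5 replicate 3, and fallers numbered 7 without D5 replicate 3 and 9 without control replicate 1. The mitochondrial enzyme Gcat, which breaks down threonine, was at 13.2, 16.7 and 16.3 CPM in the controls and 1.91, 2.55 and 2.63 CPM at D5 (log2 -2.70 ± 0.30, adjusted p = 0.000122). Aldh1l1, a folate enzyme often used to mark astrocytes, was at 54.9, 65.1 and 55.05 CPM in the controls and 10.6, 11.5 and 10.00 CPM at D5 (log2 -2.44 ± 0.26, adjusted p = 9.02e-05). Slc7a11, the cystine importer, was at 359.6, 371 and 518 CPM in the controls and 1440.1, 821 and 915 CPM at D5 (log2 1.35 ± 0.22, adjusted p = 0.00103), and Slc38a1, a glutamine transporter, at 2.69, 3.10 and 2.87 CPM in the controls and 17.9, 29.8 and 11.7 CPM at D5 (log2 2.77 ± 0.35, adjusted p = 0.000213). Among antioxidant, iron and metal genes 12 of 45 rose and 7 fell, and risers numbered 7 without D5 replicate 1 or control replicate 4, and fallers numbered 3 without D5 replicate 2 or control replicate 4 and 4 without D5 replicate 1 or 3 or control replicate 1. Lcn2, which binds bacterial iron carriers, was at 6.49, 6.40 and 0.0957 CPM in the controls and 174, 86.7 and 104 CPM at D5 (log2 4.84 ± 0.82, adjusted p = 0.00138), and the log2 value was 4.22 without control replicate 4. Trf, the iron carrier transferrin, was at 78.1, 98.2 and 76.8 CPM in the controls and 25.5, 27.7 and 12.6 CPM at D5 (log2 -1.94 ± 0.35, adjusted p = 0.00194).

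Glucocorticoid-responsive genes fell in 11 of 27 cases and rose in 3 (median log2 -0.52). The 11 dropped to 5 without D5 replicate 3, 6 without control replicate 1 and 7 without D5 replicate 1. Zbtb16, a zinc finger factor strongly induced by glucocorticoids, was at 54.1, 55.3 and 49.6 CPM in the controls and 10.4, 13.96 and 11.8 CPM at D5 (log2 -2.14 ± 0.45, adjusted p = 0.00489), and Klf15 at 77.3, 68.5 and 51.2 CPM in the controls and 11.7, 28.2 and 13.8 CPM at D5 (log2 -1.88 ± 0.42, adjusted p = 0.00672). Tsc22d3, which encodes GILZ, went from 110.1 to 49.6 CPM (log2 -1.15 ± 0.25). Against the class, Fkbp5, a chaperone of the glucocorticoid receptor, was at 11.3, 11.9 and 6.99 CPM in the controls and 33.97, 38.00 and 38.4 CPM at D5 (log2 1.88 ± 0.30, adjusted p = 0.000958). All 3 D5 libraries of Fkbp5 were above the controls and all 3 of Zbtb16 and Klf15 below. Circadian clock genes had 3 fallers and 1 riser among 20, and risers numbered 0 without D5 replicate 1 or 2 or control replicate 1 or 4, and fallers numbered 6 without D10 replicate 3. Npas2, a partner of the clock factor BMAL1, was at 71.5, 89.1 and 84.5 CPM in the controls and 14.1, 19.1 and 9.74 CPM at D5 (log2 -2.52 ± 0.29, adjusted p = 0.000148). The hour of tissue collection is not given in the sources used here.

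Imprinted growth genes, which are used from the copy of 1 parent, fell in 9 of 25 cases and rose in 3 (median log2 -0.61). Besides Dlk1, the amino acid transporter Slc38a4 was at 14.1, 10.6 and 17.9 CPM in the controls and 2.38, 2.82 and 2.24 CPM at D5 (log2 -2.51 ± 0.58, adjusted p = 0.00787). Plagl1, a zinc finger factor that regulates other imprinted genes, went from 93.9 to 20.1 CPM (log2 -2.22 ± 0.44) and Peg3 from 231 to 103 CPM (-1.17 ± 0.17). H19, a noncoding RNA, went the other way with 35.2, 24.5 and 22.2 CPM in the controls and 81.1, 65.5 and 84.9 CPM at D5 (log2 1.50 ± 0.28, adjusted p = 0.0024). At D10 the H19 level was 14.8, 35.5 and 30.7 CPM. The growth factor adaptor Grb10 also rose (189, 161 and 133 CPM in the controls and 254, 240.3 and 302 CPM at D5, log2 0.72 ± 0.15, adjusted p = 0.00496). Neither gene had overlapping groups.

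The primary cilium is the antenna through which many resting cells receive hedgehog signals, and cells take it down when they divide. Of 50 cilium and intraflagellar transport genes 11 fell and 1 rose (median log2 -0.32), and risers numbered 0 without D5 replicate 1 or 3 or control replicate 1 or 4, and fallers numbered 5 without D5 replicate 1, 6 without control replicate 1 and 7 without D5 replicate 3. Ift172, a transport subunit, went from 94.9 to 54.03 CPM (log2 -0.81 ± 0.16), Ift81 from 56.9 to 31.4 CPM (-0.86 ± 0.20) and Evc, a hedgehog mediator at the cilium base, from 117 to 67.4 CPM (-0.80 ± 0.16). The largest fall of the class was that of Bbs7, a trafficking subunit, at -1.13 ± 0.34 (adjusted p = 0.0311), and the call ended without D5 replicate 1 (adjusted p = 0.105), D5 replicate 3 (adjusted p = 0.127), control replicate 1 (adjusted p = 0.0681) and control replicate 3 (adjusted p = 0.0683).

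Of 53 actin genes and serum response factor targets 17 rose (32.1%) and 8 fell (15.1%), beside 13.2% and 10.7% of all genes. Tagln2, an actin-binding protein, was at 35.2, 51.4 and 42.2 CPM in the controls and 185, 152 and 186 CPM at D5 (log2 2.02 ± 0.24, adjusted p = 0.000165), and profilin 1, which feeds actin growth and is encoded by Pfn1, at 68.7, 83.97 and 72.3 CPM in the controls and 221, 185 and 195 CPM at D5 (log2 1.42 ± 0.19, adjusted p = 0.000258). Vim, the intermediate filament vimentin, went from 930.3 to 1999 CPM (log2 1.10 ± 0.14). Some contractile genes of the same list fell. Myl9, a myosin light chain, was at 152, 306 and 202 CPM in the controls and 56.97, 117 and 66.2 CPM at D5 (log2 -1.46 ± 0.33, adjusted p = 0.00669). Acta2, smooth muscle actin, had a log2 fold change of -1.12 ± 0.37 (adjusted p = 0.0418), but the call ended without D5 replicate 1 (adjusted p = 0.147), D5 replicate 3 (adjusted p = 0.126), control replicate 3 (adjusted p = 0.175) and control replicate 4 (adjusted p = 0.0515) and with DESeq2 (adjusted p = 0.0733). The mural list, which holds Acta2 and Myh11, spanned 2810 to 5445 CPM in controls and 2125 to 3867 CPM at D5, and its part in the fall of contractile genes was not tested. In the actin list fallers numbered 4 without D5 replicate 1 or 3 or control replicate 4 and 5 without control replicate 3.

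Of 35 tubulin and motor genes 14 rose and 2 fell (fallers numbered 1 without D5 replicate 1, 2 or 3 or control replicate 3 or 4 and 1 with no filter on low counts). In the kinesin family 14 of 40 rose and 5 fell, and fallers numbered 1 without D5 replicate 3 and 3 without D5 replicate 1 or 2 or control replicate 4. Tubb3, a tubulin best known from neurons, went from 2.17 to 17.1 CPM (log2 2.96 ± 0.42) and Tubb5 from 204 to 473 CPM (1.21 ± 0.20). Kif26b, a kinesin-like protein of mesenchyme, went from 7.60 to 60.8 CPM (2.98 ± 0.63). Kif21a, a kinesin that steadies microtubule ends, was at 54.5, 50.7 and 45.7 CPM in the controls and 10.4, 15.8 and 11.98 CPM at D5 (log2 -1.98 ± 0.26, adjusted p = 0.000291). In the family of S100 and annexin genes 9 of 20 rose and 0 fell, and risers numbered 4 without D5 replicate 1 or control replicate 4 and 5 without D5 replicate 3 or control replicate 1, and fallers numbered 1 without control replicate 1 or D10 replicate 3 and 1 with DESeq2. S100a4, a calcium-binding protein of motile mesenchymal and immune cells, was at 0.612, 1.24 and 2.01 CPM in the controls and 9.89, 15.04 and 9.74 CPM at D5 (log2 3.13 ± 0.48, adjusted p = 0.000742).

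Of 52 genes of glycosaminoglycan synthesis and sulphation 14 rose (26.9%) and 8 fell (15.4%), beside 13.2% and 10.7% of all genes, the fallers 5 without D5 replicate 3 or control replicate 1. Has2, which makes hyaluronan, was at 1.10, 1.55 and 6.61 CPM in the controls and 37.4, 26.5 and 47.6 CPM at D5 (log2 3.55 ± 0.76, adjusted p = 0.00512), and the log2 value was 4.78 without control replicate 4. Gpc3, a heparan sulphate proteoglycan anchored to the membrane, was at 1582, 1712 and 1376 CPM in the controls and 321, 346 and 141 CPM at D5 (log2 -2.53 ± 0.40, adjusted p = 0.000897). Chst2, a sulphotransferase, went from 40.8 to 140.1 CPM (log2 1.78 ± 0.16) and Sdc4, which encodes syndecan 4, from 78.1 to 148 CPM (0.92 ± 0.21).

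Tight junction and epithelial-type adhesion genes had 7 risers (18.4%) and 6 fallers (15.8%) among 38, beside 13.2% and 10.7% of all genes, the fallers 2 without D5 replicate 3 and 3 without control replicate 4. Jam2, a junctional adhesion molecule, was at 81.2, 108 and 103 CPM in the controls and 31.5, 26.9 and 18.4 CPM at D5 (log2 -1.93 ± 0.30, adjusted p = 0.000729), and Cdh11, the cadherin of mesenchymal cells, at 237, 183 and 252 CPM in the controls and 481, 439 and 623 CPM at D5 (log2 1.20 ± 0.21, adjusted p = 0.00152). Of 46 ephrin, plexin and other guidance genes 7 rose (15.2%) and 9 fell (19.6%), the fallers 5 without D5 replicate 1 or 3. Robo1, a Slit receptor, was at 104, 129 and 159.7 CPM in the controls and 318, 300.2 and 363 CPM at D5 (log2 1.32 ± 0.18, adjusted p = 0.000395), and Rgma, a repulsive guidance molecule, at 188, 241 and 224 CPM in the controls and 88.7, 102 and 84.9 CPM at D5 (log2 -1.24 ± 0.17, adjusted p = 0.000306). The groups did not overlap for any of these genes.

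Of 268 solute carriers 33 rose (12.3%) and 43 fell (16.04%), beside the 13.2% and 10.7% of all genes, with 26 fallers without D5 replicate 3 and 19 or 20 risers without D5 replicate 3 or 1. Slc13a4, a sulphate transporter, went from 267 to 48.7 CPM (log2 -2.45 ± 0.33), Slc12a2, a sodium, potassium and chloride cotransporter, from 320.5 to 77.6 CPM (-2.05 ± 0.25), and Slc22a3, an organic cation transporter, from 51.5 to 6.93 CPM (-2.89 ± 0.48). In the other direction the phosphate transporter Slc20a1 went from 68.6 to 229 CPM (1.74 ± 0.28). Of 48 potassium channels 4 rose (8.33%) and 9 fell (18.75%), and risers numbered 2 without D5 replicate 1, 2 or 3 or control replicate 4, and fallers numbered 5 without D5 replicate 3. Of 73 other ion channels 7 rose (9.59%) and 16 fell (21.9%), and risers numbered 3 without D5 replicate 1 or 2 and 4 without D5 replicate 3 or control replicate 4. The calcium channel gene Cacna1e went from 96.5 to 9.27 CPM (log2 -3.38 ± 0.34).

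Among 38 ABC transporters 5 rose (13.2%) and 9 fell (23.7%, against 10.7% of all genes), and risers numbered 3 without control replicate 1 or 4, and fallers numbered 5 without D5 replicate 3. Abca8a, a lipid transporter, was at 1068, 1305 and 1080.3 CPM in the controls and 104, 160.3 and 55.4 CPM at D5 (log2 -3.43 ± 0.44, adjusted p = 0.000234). Its relatives Abca9 (916 to 153 CPM, log2 -2.58 ± 0.31) and Abca6 (402 to 44.9 CPM, -3.16 ± 0.52) fell as well. Abcg1, a cholesterol exporter, was at 8.57, 4.23 and 10.4 CPM in the controls and 29.9, 44.7 and 40.8 CPM at D5 (log2 2.31 ± 0.34, adjusted p = 0.000524), and Abca1, another such exporter, went from 136 to 585 CPM (log2 2.11 ± 0.21). Adcy5, an adenylyl cyclase, went from 441 to 90.3 CPM (-2.29 ± 0.27), and Pde4c, which breaks down cyclic AMP, was at 22.3, 19.7 and 20.2 CPM in the controls and 2.62, 2.42 and 1.32 CPM at D5 (log2 -3.28 ± 0.61, adjusted p = 0.00248).

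Transcription factor families had calls in both directions. Zinc finger genes named Zfp or Zbtb gave 8 risers (2.03%) and 33 fallers (8.38%) of 394, against 13.2% and 10.7% of all genes. In this family risers numbered 2 without D5 replicate 3 and 5 without D5 replicate 1 or control replicate 1 or 4, and fallers numbered 16 without D5 replicate 3 and 17 without D5 replicate 1. Zbtb20, a repressor found in many tissues, went from 1310.4 to 721 CPM (log2 -0.86 ± 0.15). Of 77 homeobox genes 6 rose (7.79%) and 12 fell (15.6%), a few genes from the shares over all genes. Pax9, a factor of skeletal and meningeal precursors, was at 13.1, 6.61 and 4.50 CPM in the controls and 1.43, 1.61 and 0.526 CPM at D5 (log2 -2.74 ± 0.57, adjusted p = 0.0045). Sox and T-box genes had 5 risers and 7 fallers of 21. Sox8 was at 249, 378 and 285 CPM in the controls and 44.7, 61.5 and 19.9 CPM at D5 (log2 -2.86 ± 0.42, adjusted p = 0.000542), and its relative Sox9, a factor of cartilage and glia, went from 233 to 88.8 CPM (log2 -1.39 ± 0.30), while Sox4 went from 41.99 to 103 CPM (1.30 ± 0.16).

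Of 66 basic helix-loop-helix and related factors 10 rose (15.2%) and 13 fell (19.7%), beside 13.2% and 10.7% of all genes. Ebf2, a factor of mesenchymal precursors, went from 170.1 to 30.8 CPM (log2 -2.46 ± 0.50) and Hif1a, the hypoxia-inducible factor, from 132 to 372 CPM (1.50 ± 0.24). Among 26 forkhead genes 5 rose (19.2%) and 3 fell (11.5%). Foxd2 was at 41.8, 51.95 and 37.7 CPM in the controls and 14.8, 13.6 and 10.7 CPM at D5 (log2 -1.75 ± 0.23, adjusted p = 0.000276). Interferon regulatory and STAT factors rose in 6 of 17 cases and fell in 1. Stat4, a T cell factor with 0 counts in controls, was at least 55.5-fold higher. Stat5b was the faller, with 92.8, 90.1 and 90.4 CPM in the controls and 51.6, 59.3 and 55.1 CPM at D5 (log2 -0.72 ± 0.13, adjusted p = 0.0023). In nuclear receptors as a family 3 of 39 rose (7.69%) and 6 fell (15.4%), a few genes from the shares over all genes, and risers numbered 1 without control replicate 4, and fallers numbered 2 without D5 replicate 1 or 3.

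Among phosphatases of the dual specificity and tyrosine families 18 of 56 rose and 3 fell (fallers numbered 1 without D5 replicate 2 or 3 or control replicate 1 or 4), and Dusp4, which switches off MAP kinases, went from 6.95 to 36.03 CPM (log2 2.38 ± 0.28). Exchange and activating factors of small GTPases had 11 risers (12.9%) and 19 fallers (22.4%) of 85, the latter 10 without D5 replicate 1 and 12 without D5 replicate 3. Arhgap30, a GTPase regulator of blood cells, was at 0.980, 2.17 and 0.957 CPM in the controls and 18.1, 26.3 and 19.1 CPM at D5 (log2 3.93 ± 0.38, adjusted p = 6.59e-05), and Rasgrp2, a Rap1 activator, at 38.7, 84.2 and 69.98 CPM in the controls and 16.1, 29.00 and 13.4 CPM at D5 (log2 -1.72 ± 0.35, adjusted p = 0.0038). Of 48 splicing factors 3 rose (6.25%) and 5 fell (10.4%), and risers numbered 0 without D5 replicate 1 and 1 without D5 replicate 3 or control replicate 1, 3 or 4, and fallers numbered 3 without D5 replicate 2 or 3 or control replicate 4. Srsf5, a serine and arginine rich splicing factor, was at 503, 368 and 435 CPM in the controls and 220.3, 218 and 218 CPM at D5, and its D5 libraries were almost equal (log2 -0.99 ± 0.21, adjusted p = 0.00531). Of 54 chromatin regulators 9 rose (16.7%) and 7 fell (12.96%), beside 13.2% and 10.7% of all genes, and fallers numbered 3 without D5 replicate 2 and 4 without D5 replicate 1 or 3 or control replicate 4. Uhrf1, which maintains DNA methylation after replication, was at 6.12, 2.69 and 2.97 CPM in the controls and 24.4, 20.9 and 28.7 CPM at D5 (log2 2.66 ± 0.44, adjusted p = 0.00108), and Cbx7, a Polycomb protein, at 71.6, 73.02 and 62.9 CPM in the controls and 18.8, 28.9 and 17.1 CPM at D5 (log2 -1.68 ± 0.30, adjusted p = 0.00192). Lysosome and autophagy genes had 8 risers and 3 fallers of 50, with 5 fallers without D10 replicate 3 and with DESeq2, no filter on low counts or the 6 libraries alone. Of 35 p53, arrest and senescence genes 8 rose (22.9%) and 3 fell (8.57%). In the p53 list risers numbered 4 without D5 replicate 1 or 3 or control replicate 4 and 5 without control replicate 1. Its fallers numbered 0 without D5 replicate 3 and 1 without D5 replicate 2 or control replicate 1.

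By annotated gene type, 1929 of 13796 protein-coding genes tested rose and 1602 fell, with 936 fallers without D5 replicate 3. Processed pseudogenes, which are intronless copies of messenger RNAs, rose in 100 of 735 cases (13.6%) and fell in 15 (2.04%). The share of risers was close to that of all genes. Pseudogene risers numbered 52 without D5 replicate 1 and 59 without D5 replicate 3. Pseudogene fallers numbered 7 without D5 replicate 3, 8 without D5 replicate 1, 9 without D5 replicate 2 or control replicate 1 or 4 and 9 with limma voom. Reads of pseudogenes may come from the parent genes, since counts of near-identical copies can be split. Antisense transcripts rose in 3 of 318 cases (0.943%) and fell in 27 (8.49%), both below the shares over all genes. Antisense risers numbered 5 without D5 replicate 1 and 5 with DESeq2 or no filter on low counts. Antisense fallers numbered 12 without D5 replicate 1, 13 without control replicate 4 and 14 without D5 replicate 2 or 3. Without knowledge of the strand setting, antisense counts cannot be told from reads of the gene on the other strand. Long intergenic RNAs had 9 risers (8.57%) and 13 fallers (12.4%) of 105. The risers numbered 4 without D5 replicate 1 or 3 and 5 without D5 replicate 2 or control replicate 4. The fallers numbered 4 without D5 replicate 3, 7 without D5 replicate 1 and 8 without D5 replicate 2 or control replicate 4. All 5 immunoglobulin and all 3 T cell receptor constant genes tested rose, as did 1 of 5 immunoglobulin variable genes tested. Constant genes near 0 in controls pass the filter only through the groups where they are high. Their count of risers was therefore largely fixed in advance. With limma voom the calls of Igkc, Ighg2b and Ighg2c ended.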

How the data were processed

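RNA from sorted GFP cells was sequenced as paired-end reads of 100 bases on a HiSeq4000, per the labels' protocols. The authors deposited whole read counts per gene, and CPM values that equal each count divided by the library total. The submitters' processing notes name build mm9 and list HTSeq 0.6.1, SAMtools 0.1.19, Bowtie2 2.2.1, TopHat2 2.0.11 and a DESeq2 of unstated version. The sources used here do not give the annotation or the strand setting. Only the deposited counts were tested, and the deposited CPM served as a check. The table had 37991 genes and 1 line of totals, which was dropped. For 24 genes a symbol turned into a date was restored by identifier.

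Counts of the 9 sorted libraries were fitted with edgeR 4.0.16 (quasi-likelihood test, TMM scaling, filterByExpr) in R 4.3.3, which left 15972 genes, and p-values were adjusted over all of them by the Benjamini-Hochberg method. Genes with an adjusted p under 0.05 are called, and rose, fell, riser and faller refer to called genes. The 2 whole cord libraries were not used. CPM in the text is the scaled value computed here. On simulated counts for D5 against control with 15972 genes, 34% of 100 genes changed 2-fold and 75% of 100 changed 4-fold were recovered, with 4 false calls. Far fewer genes were changed there than the 23.9% called in the real data, so these rates need not hold for the real comparison. Alternatives were limma 3.58.1 (voom), DESeq2 1.42.0, other scalings, no filter, 6 libraries only, a replicate block and leaving out each library. Counting intervals (exact, 95%) and bounds from a floor of 3 counts cover counting error only.

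Members and lists were chosen with earlier results of these data known. Named genes were the 15 largest rises and falls without overlap at 10 CPM or more, the 10 largest gains and losses in CPM, the leading called members of each list, the 5 genes with most counts against a group at 0, tested marker genes and Col1a1, Fn1, Postn and Mki67. A few genes that this rule names are not reported here. Of the genes, 32919 were found by identifier in the GRCm38 annotation, which gave gene types. Promoter windows were matched by symbol.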

Additional observations from a re-analysis of the deposited data

How the results depend on the processing

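No called gene changed direction under any alternative, and the median log2 fold change over all genes lay between -0.03 and 0.03. Leaving out 1 library of either group gave 1460 to 1977 genes higher (2115 with all) and 986 to 1611 lower (1702). The lowest counts of genes lower came without D5 replicate 1 (1125) and D5 replicate 3 (986). Leaving out any other single control or D5 library gave 1271 to 1611, so the count depends on which library is dropped. Why these D5 libraries weigh more was not tested. Changes of at least 2-fold numbered 1084 to 1331 higher and 646 to 1036 lower. DESeq2 called 2378 genes higher and 2029 lower, limma voom 2070 and 1571, DESeq2 size factors in edgeR 2084 and 1722, upper quartile scaling 2083 and 1732, no filter 2321 and 1784, and the 6 libraries alone 2079 and 1794. Without D10 replicate 3, an alternative chosen after seeing the data, the counts were 2091 and 1899. A replicate block gave 1655 and 1258, and its effect is not given beside most genes and lists above. Histone risers, for example, numbered 21 with the block. The groups share only numbers 1 and 3, and deviations of same-numbered libraries correlated at 0.12 and -0.02 across genes, so the numbers were not taken as pairs. Of 289 named genes with a call, 206 kept it in the same direction under every alternative. The block ended 36 of these calls, limma voom 27, and single libraries 16 (control replicate 3) to 50 (D5 replicate 3). Of 2492 recomputed list counts 359 moved by more than 1.5 times, and the cause was not tested. With 3 pooled libraries a group and 7123291 counts in the smallest, changes under 2-fold and genes near 1 CPM were least secure.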
